A study of Homo sapiens with 12 samples.

Results

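Within 12 Illumina BeadChip arrays of MDA-MB-231, an ER-negative breast cancer cell line, 6 arrays had a reduced level of CCND1, the gene of cyclin D1, and these fell into a set of 3 with the lowest level and a set of 3 with an intermediate level. The arrays were chosen by the deposited intensity of 1 CCND1 probe (ILMN_1688480), below 4000 for the lowest set and from 4000 to 6000 for the intermediate set, and not by their labels. The labels describe 4 groups of 3 arrays, namely cells that received no siRNA, a non-targeting siRNA pool, siRNA against CCND1 or siRNA against CDK4/6, all on the same cell line. The lowest set comprised array 1 of the non-targeting siRNA label, array 2 of the no siRNA label and array 2 of the cyclin D1 siRNA label, and the intermediate set those labelled cyclin D1 siRNA 3, CDK4/6 siRNA 3 and non-targeting siRNA 3. Values of the 6 arrays are given in this order throughout. The remaining 6 arrays, with CCND1 above 6000, are used only to place a value.

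Each set therefore mixed 3 labels, and 2 labels (non-targeting siRNA and cyclin D1 siRNA) stood in both. The CCND1 level did not follow the labels. It was 13878 on the array labelled cyclin D1 siRNA 1 and 2703 on that labelled no siRNA 2. The replicate numbers used below rest on these same labels. What the cells of each set had received is not known from the labels, so the sets are named by their CCND1 level only, and neither is called treated or control. Because the arrays were grouped by a measured level, no test was run and no p-value is given for any difference between the sets. Differences are set against the spread of the arrays within each set instead. All 3 intermediate arrays carry replicate number 3 in the labels and the lowest arrays carry 1, 2 and 2, so CCND1 level and labelled replicate number cannot be told apart in this comparison. The study speaks of independent experiments behind its plots, but the labels do not tie arrays to cultures. In RNA from a whole culture, fewer cells with a transcript and less transcript per cell cannot be told apart.

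Cyclin D1 binds the kinases CDK4 and CDK6, and the complexes phosphorylate the retinoblastoma protein and release E2F factors, which drive genes of DNA replication. ID1 is an inhibitor of basic helix-loop-helix (bHLH) transcription factors, which bind E-boxes in DNA and have roles in differentiation. YAP1 is a coactivator of TEAD transcription factors and the effector of the Hippo pathway, known for its role in cell growth and in the response to cell shape and density. The study asked how ID1 and genes of the epithelial-mesenchymal transition (EMT) relate to cyclin D1 in these cells.

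CCND1 was at 2951, 2703 and 3513 on the lowest arrays and at 5100, 4361 and 4311 on the intermediate arrays. The arrays just inside and just outside the limit of 4000 thus stood at 3513 and 4311, and the highest intermediate array, at 5100, was followed by 13659 on the first array above 6000. This separation is what defined the sets. CDK4, at 2289, 2361 and 2431 against 2234, 2408 and 2167, overlapped between the sets. CDK6, at 1539, 1565 and 1470 against 1752, 1697 and 1532, overlapped too. The 3 arrays on which CDK4 was low, at 275, 301 and 409, had high CCND1 and belonged to neither set. They were labelled non-targeting siRNA 2, no siRNA 3 and CDK4/6 siRNA 2. These 3 genes were left out of all counts.

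VIM (vimentin, an intermediate filament protein of mesenchymal cells) was at 15295 to 16971 on the 6 arrays, among the bright probes. CDH1 (E-cadherin) was at 42.8 to 48.3, around the background level of 44.5, and ESR1, the gene of oestrogen receptor alpha, at 37.8 to 46.1. EPCAM, an epithelial gene, was dim but above background on all 12 arrays, at 61.4 to 80.3 over both its probes on these 6. Summed marker intensities of other cell types overlapped between the sets for 3 of 4 lists, at 6359 to 6682 against 6092 to 6729 for 10 luminal breast genes, 5389 to 5803 against 5269 to 5695 for 9 leukocyte genes, and 5400 to 5572 against 5291 to 5496 for 10 fibroblast genes. For 10 endothelial genes the sums were 483.9 to 498.3 against 498.4 to 524.3, and 6 of these 10 were above background on none of the 6 arrays. The same held for 2 luminal, 4 leukocyte and 4 fibroblast genes (FOXA1 and PGR, then CD3E, CD79A, ITGAM and PTPRC, then COL3A1, FAP, POSTN and THY1). The leukocyte sum was mostly CD68 (4626 to 5143 on the 6 arrays) and the fibroblast sum mostly COL1A2 (4726 to 5064), so that these sums say little of dimmer members. PDGFRB was at 112, 109 and 116 against 141, 169 and 128, below on all 3 lowest arrays, as were CD3D and TIE1, and AGR2 was above. These were 1 of 5 measured fibroblast, 1 of 5 leukocyte, 1 of 3 endothelial and 1 of 7 luminal genes. Over all genes, 7.94% lay below and 8.95% above. CD3D, at 43.3 to 49.2, was around the background level. The part of these genes in the differences below was not tested.

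Of 13434 genes compared, 101 were counted as higher and 39 as lower on the lowest-CCND1 arrays, or 0.752% and 0.29%. A gene was counted where the 3 values of one set all lay outside the 3 of the other and the mean log2 values differed by at least 0.5. Without the minimum size, 1202 genes (8.95%) lay above and 1067 (7.94%) below on all 3 lowest arrays. The median SD of a gene was 0.0665 on the log2 scale within the lowest set and 0.0869 within the intermediate set, and the median difference over all genes was -0.0025. Counted genes were brighter than the rest, with a median intensity of 637 for those higher and 621 for those lower, against 179 over all genes. The offset used in the background correction shrinks the differences of dim genes.

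**Figure D1:**
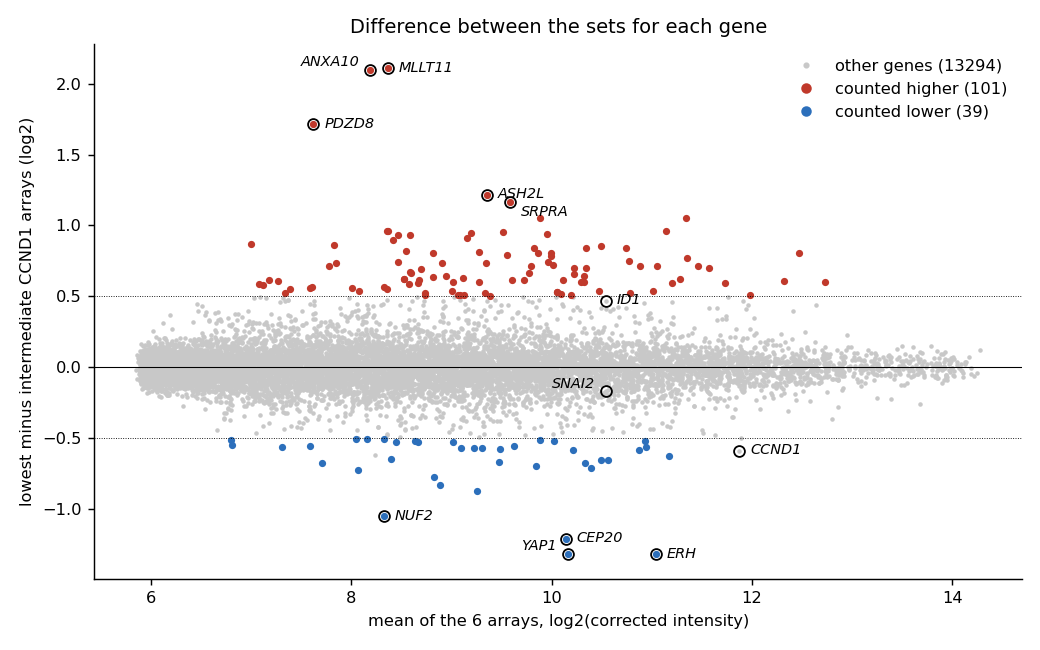
Difference of the mean log2 intensity between the lowest and the intermediate CCND1 arrays (vertical axis) against the mean of the 6 arrays (horizontal axis), 1 point per gene. Red points are the 101 genes counted higher and blue points the 39 counted lower, dotted lines mark 0.5 in each direction, and CCND1 is circled but was not counted.

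The 250 bases before the start sites of 3 genes that the comparison turns on are shown here because ID1 and YAP1 set the lowest arrays apart and MLLT11 the intermediate ones. They are RefSeq sequences of GRCh38.p14, on the plus strand, at chr20:31605039-31605288 for ID1, chr11:102110197-102110446 for YAP1 and chr1:151060147-151060396 for MLLT11. Capitals mark each match of the E-box CANNTG, the form bound by bHLH factors, which reads the same on both strands.
ID1: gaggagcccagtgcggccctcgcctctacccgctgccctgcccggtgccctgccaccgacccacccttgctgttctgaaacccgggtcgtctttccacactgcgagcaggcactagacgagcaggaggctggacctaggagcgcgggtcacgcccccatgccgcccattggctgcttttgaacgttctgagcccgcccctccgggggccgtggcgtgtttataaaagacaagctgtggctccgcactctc
YAP1: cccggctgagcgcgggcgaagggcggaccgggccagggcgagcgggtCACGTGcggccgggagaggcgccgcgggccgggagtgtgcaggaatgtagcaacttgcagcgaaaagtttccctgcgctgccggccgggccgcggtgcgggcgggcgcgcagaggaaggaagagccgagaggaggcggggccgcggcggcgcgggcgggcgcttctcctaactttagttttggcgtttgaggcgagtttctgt
MLLT11: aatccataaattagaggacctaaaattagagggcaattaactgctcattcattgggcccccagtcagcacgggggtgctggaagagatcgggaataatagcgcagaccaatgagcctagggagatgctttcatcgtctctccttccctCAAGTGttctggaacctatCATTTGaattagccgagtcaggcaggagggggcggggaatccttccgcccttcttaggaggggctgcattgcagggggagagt
There was no match in the ID1 window, 1 in that of YAP1 and 2 in that of MLLT11. The motif was in 56.5% of the 85 windows found for genes counted higher, in 59.4% of the 32 found for genes counted lower, in 55.3% of the 10822 found for genes compared, and in 62.2% of all 27305 windows. A match is a description of the letters and not of a binding site.

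ID1 was higher on the lowest-CCND1 arrays, at 1719, 1734 and 1750 against 1315, 1205 and 1222 on the intermediate arrays. The sets did not overlap, and the values within the lowest set differed by less than the gap between the sets. The log2 difference was 0.47 (standard error 0.039, n = 3 and 3), or 1.39-fold, just short of the 0.5 needed to be counted, and 0.51 without the array labelled cyclin D1 siRNA 3. On the 6 arrays with high CCND1, ID1 ranged from 1114 to 1451 with a median of 1259, so that the lowest set lay above all 6 and the intermediate set among them. The dimmer ID1 probe, ILMN_1665832, read 145, 146 and 117 against 154, 114 and 106, with overlap and a log2 difference of 0.12 (standard error 0.17).

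ID3, a second inhibitor of the family, was at 800, 785 and 847 against 761, 617 and 798, with overlap. Of the 7 measured ID genes and E protein partners, 1 (ID1) lay above on all 3 lowest arrays and 0 lay below, close to the 8.95% and 7.94% of all genes, and the median log2 difference was -0.029.

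SNAI2, the gene of the EMT transcription factor Slug, was at 1318, 1373 and 1475 on the lowest arrays and at 1556, 1457 and 1682 on the intermediate arrays. The intermediate values were on the whole higher, but the sets overlapped, with a log2 difference of -0.17 (standard error 0.075). By this probe (ILMN_2082585) both sets lay above the 6 arrays with high CCND1, at 1122 to 1261. By the second SNAI2 probe, at 448, 372 and 470 against 621, 408 and 529, the sets overlapped each other and the high-CCND1 range of 322 to 479. CDH11, the gene of OB-cadherin, was at 3659, 3933 and 4055 against 3630, 4229 and 4042, a log2 difference of -0.029 (standard error 0.078). TWIST1, a further EMT factor, was close to background on all 6 arrays, at 48.7, 50.6 and 43.6 against 43.5, 46.2 and 46.1.

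SNAI1 (Snail), at 43.5, 45.9 and 45.5 against 40.3, 43.1 and 47.8, was also near background, and VIM differed by -0.0091 on the log2 scale. Of 9 measured EMT transcription factors and 27 mesenchymal and matrix genes, none was counted, which is near the background of 0.752% and 0.29%, and the medians were 0.0099 and -0.0019. On all 3 lowest arrays, 4 of the 27 mesenchymal and matrix genes lay above (CDH2, LAMA4, ITGB4 and THBS1) and 1 below (ITGB5), and 0 and 1 (GSC) of the 9 EMT factors. Over all genes, 8.95% lay above and 7.94% below. CDH2 (N-cadherin), picked after its values were seen, was at 103.5, 110.1 and 98.2 against 86.5, 85.5 and 88.6. Among 16 epithelial genes none was counted, and 1 lay above and 2 below, beside the same 8.95% and 7.94%. TGFB1, TGFB2, TGFB3, SRC and KLF17 overlapped between the sets, with log2 differences between -0.076 and 0.0099. TGFB1, at 3397, 3105 and 3039 against 3526, 3215 and 3052, was below the 6 arrays with high CCND1 (3541 to 4006) in both sets.

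**Figure D2:**
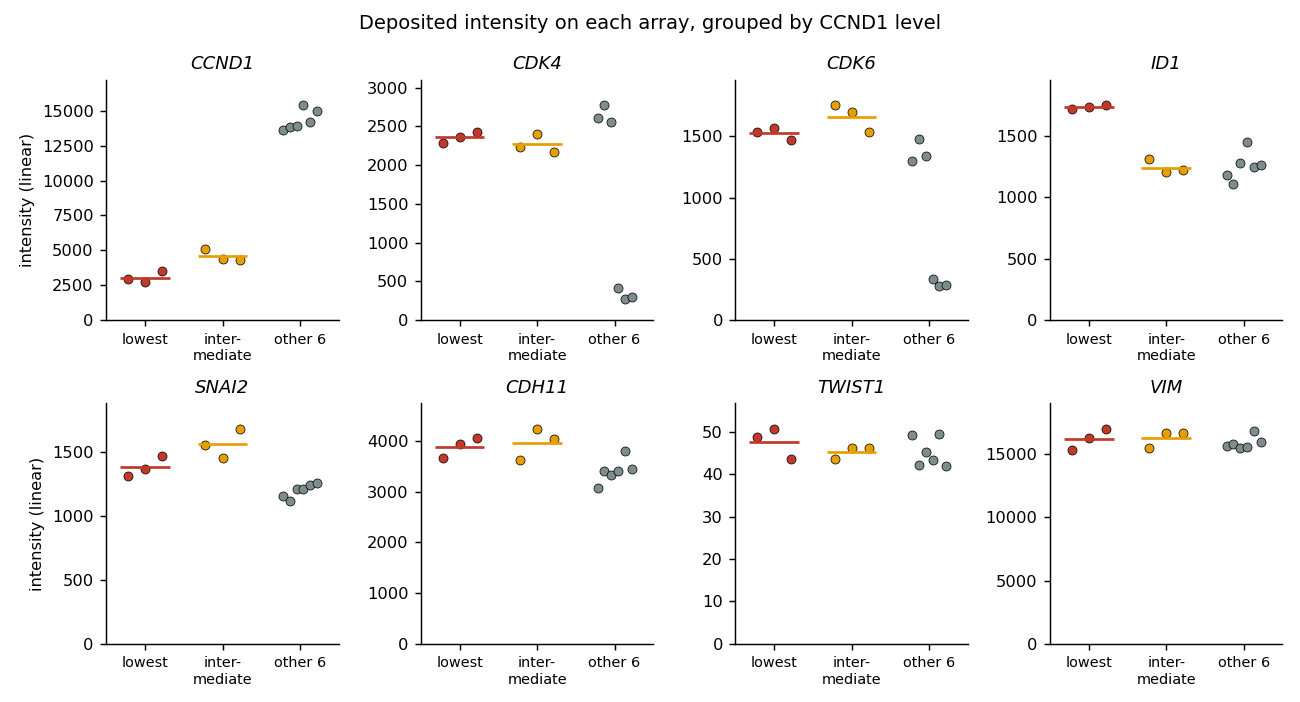
Deposited linear intensity of 8 genes on each of the 12 arrays (vertical axis, starting at 0), with the 3 lowest-CCND1 arrays in red, the 3 intermediate arrays in orange and the 6 arrays with CCND1 above 6000 in grey. Horizontal lines are geometric means of each set of 3. ID1 on the lowest arrays, at 1719 to 1750, lies above the other 9, while CDH11, TWIST1 and VIM overlap between the sets.

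YAP1 was lower on the lowest-CCND1 arrays, at 740, 662 and 721 against 1857, 1649 and 1864 on the intermediate arrays. This was a log2 difference of -1.32 (standard error 0.074), with 2.49-fold more on the intermediate set. The 6 arrays with high CCND1 were at 1670 to 2310, close to the intermediate set. The level of YAP1 thus separated the lowest set from the other 9 arrays.

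The list of YAP1 and related genes held TEAD factors, target genes and also the Hippo kinase gene LATS1. Of its 25 measured members, 1 (YAP1 itself) was counted as lower and 0 as higher, beside 0.29% and 0.752% of all genes. On all 3 lowest arrays, 4 were below, namely YAP1, LATS1, CCN2 and NT5E, and 0 above, beside 7.94% and 8.95% of all genes. CCN2 (CTGF), a common YAP1 target, was at 9398, 9720 and 10531 against 11006, 11892 and 11771, a log2 difference of -0.23 (standard error 0.060). ANKRD1, another common target, ranged more widely within the intermediate set (1597, 4394 and 3016) than between the sets, with 3196, 3901 and 4086 on the lowest arrays. WWTR1, the gene of the related coactivator TAZ, overlapped at 95.6, 100.4 and 105.5 against 104.7, 109.8 and 94.8. The median of the list was -0.042.

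Among the other genes counted as lower was ERH, the gene of a small conserved nuclear protein, at 1459, 1090 and 1423 against 3419, 2887 and 3662. CEP20, the gene of a centrosomal protein, was at 738, 651 and 788 against 1693, 1648 and 1754, and NUF2, a kinetochore gene of the NDC80 complex, at 195, 174 and 251 against 360, 440 and 548. Their log2 differences were -1.32 (standard error 0.17), -1.21 (standard error 0.083) and -1.05 (standard error 0.22). All 3 NUF2 probes were lower on each lowest array than on any intermediate array. The dimmer probes differed by less, with log2 differences of -0.51 and -0.20. The dimmest was near background and barely separated, at 44.4, 43.2 and 48.0 against 48.1, 55.5 and 61.3. The intermediate set overlapped the range of the 6 high-CCND1 arrays for ERH and NUF2, and was just below it for CEP20 (1777 to 2165).

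Smaller differences in the same direction included CERS6, a ceramide synthase gene, at 379, 296 and 336 against 648, 577 and 608, and MAPK6, the gene of the kinase ERK3, at 969, 1035 and 1109 against 1703, 1741 and 1676. HDGF, ANKRD46 and FURIN, the last a proprotein convertase gene, had log2 differences of -0.69, -0.87 and -0.67. OTX2, a homeobox gene, was at 171, 206 and 195 against 308, 339 and 336 by 1 probe, and its other tested probe was near background. For CEMIP2, the gene of a cell-surface hyaluronidase, the lowest arrays (347, 324 and 315) lay below and the intermediate arrays (563, 616 and 545) above the high-CCND1 range of 381 to 460. STK38, the gene of the kinase NDR1, was placed likewise, at 1029, 943 and 1027 against 1665, 1632 and 1526, with 1252 to 1438 on the others.

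Among the genes counted as higher on the lowest-CCND1 arrays, the 3 largest differences were those of MLLT11, ANXA10 and PDZD8. MLLT11, first known as a fusion partner of the MLL gene, was at 637, 690 and 673 against 154, 126 and 141, a log2 difference of 2.11 (standard error 0.081) or 4.31-fold. ANXA10, a member of the annexin family of calcium-dependent phospholipid-binding proteins, was at 523, 733 and 521 against 135, 116 and 116, or 4.28-fold. PDZD8, the gene of a membrane protein of the endoplasmic reticulum, was at 343, 311 and 362 against 93.0, 82.5 and 94.6, or 3.28-fold. For all 3 genes the lowest set overlapped the range of the high-CCND1 arrays and the intermediate set was below it. MLLT11, for example, was at 517 to 662 on those arrays.

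The same placement held for the next genes in size. ASH2L, a core subunit of histone H3 lysine methyltransferase complexes, was at 1040, 963 and 941 against 475, 375 and 390. SRPRA, the gene of the signal recognition particle receptor, was at 1190, 1153 and 1059 against 478, 546 and 461. LGALS8 (galectin-8) was at 1330, 1256 and 1438 against 616, 635 and 662. A second bright LGALS8 probe gave a log2 difference of 0.99, beside 1.05 for the first. ARCN1, a subunit of the COPI vesicle coat, UBE2J1, a ubiquitin-conjugating enzyme of the endoplasmic reticulum, IPO4, a nuclear import receptor, and UHMK1, a protein kinase gene, had differences between 0.94 and 0.96.

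GJA1, the gene of the gap junction protein connexin 43, was at 411, 472 and 438 against 200, 199 and 254, and here the lowest arrays were above and the intermediate arrays below the high-CCND1 range of 259 to 387. A probe annotated to ANKRD20A3P was at 3573, 3871 and 3759 against 1969, 1698 and 1706. This is a pseudogene of a family with near-identical copies and its other tested probe was at 49.8 to 58.1, so the name is uncertain.

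**Figure D3:**
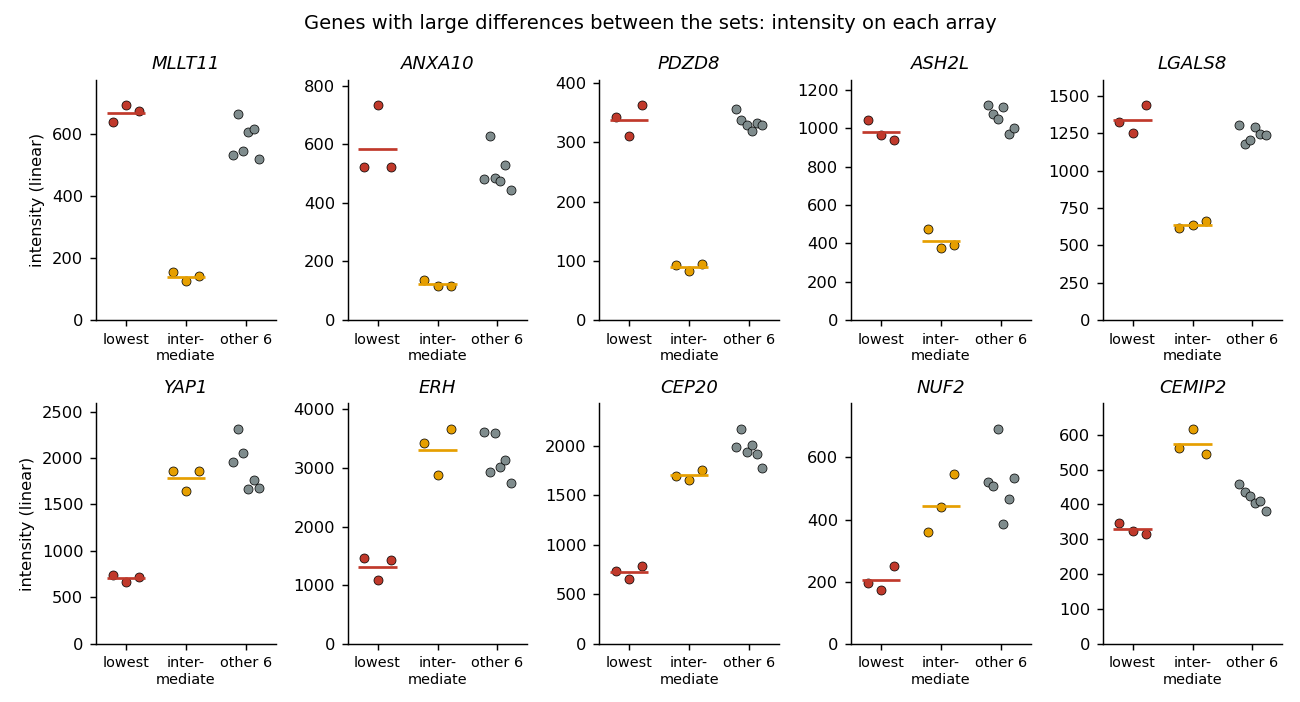
Deposited linear intensity of 10 genes with large differences on each of the 12 arrays (vertical axis, starting at 0), with the same colours as the plot of the study's genes and lines at the geometric means of each set of 3. In the upper row the intermediate arrays lie apart from the other 9, at 126 to 154 for MLLT11, and in the lower row YAP1, ERH, CEP20 and NUF2 are lowest on the lowest-CCND1 arrays, at 662 to 740 for YAP1.

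Set against the 6 arrays with high CCND1, the 2 groups of counted genes had different placements. Of the 101 genes higher on the lowest arrays, 87 had all 3 intermediate arrays below the high-CCND1 range with the lowest set not wholly outside it, and 9 had the lowest set above and the intermediate set below. Of the 39 lower genes, 26 had the lowest set below that range with the intermediate set not wholly outside it, and 5 had the lowest set below and the intermediate set above. Over all 13434 genes, the intermediate set alone was below in 3.44% and the lowest set alone in 2.58%. The lowest set was above and the intermediate set below in 0.119% of all genes, and the reverse held in 0.112%. The counted genes were picked for their difference between the sets, so these shares are a description. The high-CCND1 arrays include the 3 with low CDK4, on which CDK6 was low too.

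Of 39 measured RB, E2F and replication genes, 0 were counted in either direction, but 12 (30.8%) were below on all 3 lowest arrays and 1 (2.56%, E2F5) above, beside 7.94% and 8.95% over all genes. The median log2 difference was -0.10, and 30 of the 39 differences were below 0, beside 6885 of 13434 over all genes. These genes share their course through the cell cycle, so they do not count as separate observations. The differences were small beside that of YAP1.

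All 6 subunits of the MCM2-7 replicative helicase were below on the 3 lowest arrays, with log2 differences between -0.26 and -0.18. The separation was narrow for MCM5, at 309, 331 and 324 against 342, 440 and 333 (standard error 0.13). It was also small for MCM2, at 379, 396 and 403 against 458, 543 and 414 (standard error 0.11). MCM6 was at 1802, 1679 and 1727 against 2166, 1987 and 2035, and MCM4 at 1057, 1100 and 1107 against 1364, 1365 and 1203. TYMS (thymidylate synthase), at 2013, 1921 and 2209 against 2701, 2460 and 2834, was farthest apart in the list, by -0.38 on the log2 scale (standard error 0.084). For MCM6 the high-CCND1 arrays ran from 1557 to 2932, and those with low CDK4 stood apart from the others. Relative to the median of the high-CCND1 arrays, the 3 with low CDK4 were at -0.46 to -0.28 on the log2 scale. The other 3 were at 0.28 to 0.45, above the lowest set (-0.35 to -0.25) and the intermediate set (-0.11 to 0.014).

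Of 43 measured genes of mitosis and the spindle, 2 (NUF2 and CDCA3) were counted as lower and 0 as higher. Over all genes, 0.29% were counted as lower and 0.752% as higher. On all 3 lowest arrays, 13 (30.2%) were below and 1 (2.33%, PRC1) above, beside 7.94% and 8.95% of all genes. CDCA3 was at 791, 692 and 845 against 1114, 1085 and 1141. BIRC5 (survivin) was at 1682, 1514 and 1573 against 2082, 2178 and 2109, and MAD2L1, a spindle checkpoint gene, at 1284, 1254 and 1453 against 1922, 1508 and 1980. PRC1, an organiser of the central spindle, went the other way at 2284, 2315 and 2238 against 2004, 1664 and 1711. The median of the list was -0.085 and 37 of 43 differences were below 0, beside 6885 of 13434 over all genes.

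CCND3, the gene of cyclin D3, was higher on the lowest arrays at 7517, 7517 and 7181 against 5341, 5638 and 5432, a log2 difference of 0.44 (standard error 0.032). The intermediate set was below the high-CCND1 range of 6370 to 7825 and the lowest set within it. CDKN2D, the gene of a CDK4/6 inhibitor, was at 602, 513 and 536 against 707, 638 and 628. None of the 8 measured D cyclin and CDK inhibitor genes was counted, beside 0.752% of all genes counted as higher and 0.29% as lower. On all 3 lowest arrays, 1 (CCND3) lay above and 2 (CDKN1C and CDKN2D) below, beside 8.95% and 7.94% of all genes.

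**Figure D4:**
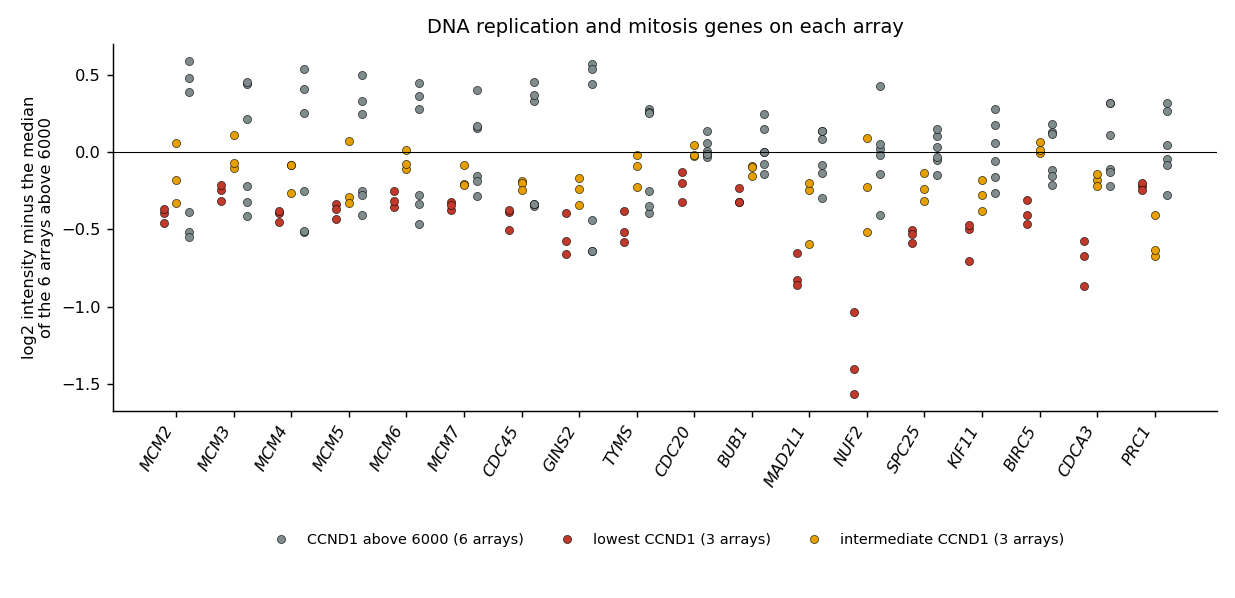
Log2 intensity of 18 DNA replication and mitosis genes on each of the 12 arrays, relative to the median of the 6 arrays with CCND1 above 6000 (vertical axis), with the lowest-CCND1 arrays in red, the intermediate arrays in orange and the 6 others in grey. The red points lie below the orange ones for every gene shown except PRC1, and the genes were chosen after their values were seen.

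Among the other lists, single genes were counted. IL1B, an inflammatory cytokine gene, was higher on the lowest arrays at 192, 185 and 150 against 116, 127 and 107, the only counted gene of 20 cytokine and chemokine genes, beside 0.752% of all genes counted as higher. EPAS1, the gene of the hypoxia factor HIF-2alpha, was at 649, 599 and 615 against 473, 393 and 349, the only counted gene of 32 in glycolysis and hypoxia, against the same share. The list leaned the other way, with 23 of 32 differences below 0 and a median of -0.036. On all 3 lowest arrays, 1 of the 32 lay above and 1 below. Of the 20 cytokine and chemokine genes, 3 lay above and 1 below, with a median of 0.041. Over all genes, 8.95% lay above and 7.94% below, and 6885 of 13434 differences were below 0. No gene was counted among 23 of the TGF-beta and BMP pathway, 20 of the Notch pathway, 31 of the interferon response, 22 of ERK output, 26 of ER folding and stress, 26 of cholesterol and fatty acid synthesis, 20 matrix proteases and inhibitors or 12 of the RNA interference machinery. Medians of these 8 lists were between -0.039 and 0.028.

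Above and below on all 3 lowest arrays were 2 and 3 of the 23 TGF-beta and BMP genes, 0 and 3 of the 20 Notch genes, 5 and 2 of the 31 interferon genes, 1 and 3 of the 22 ERK genes and 3 and 1 of the 26 ER genes. For the 26 cholesterol and fatty acid genes these were 4 and 1, for the 20 proteases and inhibitors 0 and 1, and for the 12 RNA interference genes 0 and 2. Over all genes the shares were 8.95% and 7.94%, so that lists of this size would hold a few such members at the background share. The following members, picked after their values were seen, are examples and do not set their lists apart. JAG1, a Notch ligand gene, was at 629, 636 and 649 against 824, 821 and 753, and LFNG, which modifies Notch, at 434, 464 and 377 against 609, 599 and 532. For both, the intermediate set was above the 6 arrays with high CCND1. ACVR2A, an activin receptor gene, was at 6564, 6761 and 6869 against 8530, 8294 and 7752. FOS, an immediate early gene of ERK signalling, was at 616, 721 and 662 against 494, 494 and 513, and was the 1 ERK gene that lay above. INSIG1, a feedback regulator of cholesterol synthesis, was at 805, 589 and 727 against 1161, 867 and 951. It was the 1 gene of its list that lay below, while SQLE, MSMO1, DHCR7 and SC5D, genes of sterol synthesis enzymes, lay above. In this list 19 of the 26 differences were above 0, beside 6549 of 13434 over all genes. DHCR7 was at 587.3, 586.9 and 558.5 against 524.1, 549.8 and 469.3.

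**Figure D5:**
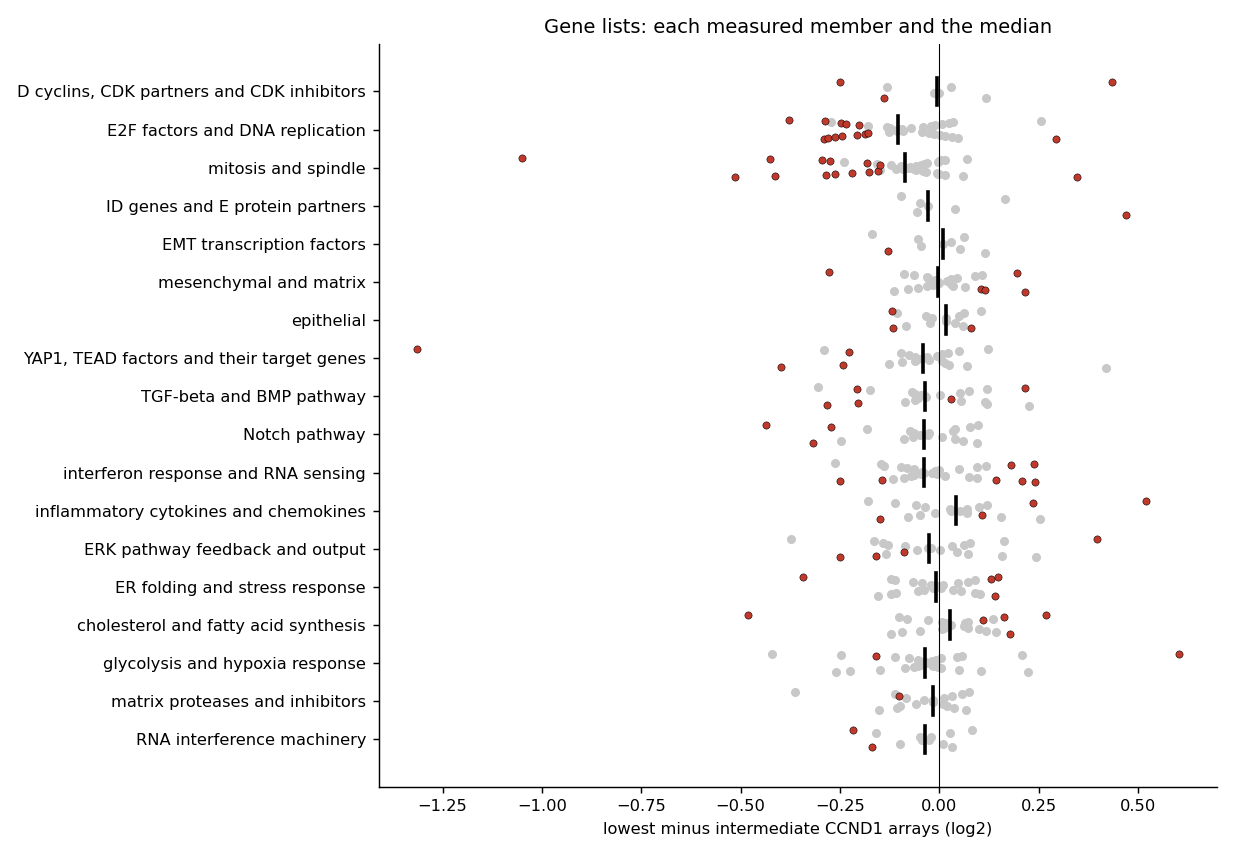
Log2 difference between the lowest and the intermediate CCND1 arrays (horizontal axis) for each measured member of 18 gene lists, with the list median as a black bar. Red points are members whose 3 values in one set all lie outside those of the other, and grey points overlap. The replication and mitosis lists have medians of -0.10 and -0.085, and YAP1, at a log2 difference of -1.32, is the point farthest to the left.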

How the data were processed

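Total RNA of MDA-MB-231 cells was hybridised to 12 arrays, labelled as 4 groups of 3. The authors deposited linear probe intensities for 48803 probes, which kept a background level (median 44.1, range 28 to 20972, pooled over the 12 arrays). The counts of 101 and 39 genes were the same with and without further quantile normalization, as for values already normalized between arrays. Neither the software nor the normalization is named in the paper or the labels. A second table, in 24 columns of intensities and detection p-values that match no sample label, was not used.

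With limma 3.58.1 in R 4.3.3, the deposited intensities underwent normexp background correction (offset 50) and quantile normalization before log2 values were taken. Tabulation and plots used Python 3.11.15, pandas 2.3.3 and matplotlib 3.10.9. A probe was kept if 3 or more of 12 arrays exceeded a background level of 44.5 (26623 probes). The level is the mode of all intensities (39.6) plus the distance, in SDs of the values below the mode (2.99), of a one-sided p of 0.05. A gene was represented by its kept probe with the highest mean over the 12 arrays. The platform annotation gave 1 symbol to 27578 probes, several to 13 and none to 21212. Of them, 27541 were matched by Entrez number to RefSeq of GRCh38.p14, and 0 symbols changed. No 2 arrays had over 0.669% of the kept probes identical.

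The arrays, the 23 gene lists and the comparisons were chosen with earlier results of these data known. Since the 2 sets were formed from a measured level, the design gives a description with no test: the difference of mean log2 values, its standard error from the spread within the sets, and counts of genes. Genes were named if the study names them at its array results, if they were among the 12 largest differences in each direction, or as counted or brightest members of a list. Other list members named here (E2F5, the MCM genes, TYMS, BIRC5, MAD2L1, PRC1, FOS, INSIG1, JAG1, LFNG, ACVR2A, LATS1, CDH2, PDGFRB, DHCR7, CCN2, NT5E, ANKRD1 and WWTR1 among them) were picked after their values were seen. The alternatives were the background correction, normalization, arrays normalized together, filter, probe of a gene, size limit and leaving out each array. The number of arrays limits the precision.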

Additional observations from a re-analysis of the deposited data

How the results depend on the processing

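The counts of 101 higher and 39 lower genes depended mainly on the size limit. They were 1202 and 1067 with no minimum difference and 7 and 4 with a minimum of 1. Under the other settings they stayed within 1.5 times, at 84 to 150 and 33 to 56. All 101 and 39 genes were also counted with no background correction, with an offset of 16, with no further normalization, with the 6 arrays normalized alone and with other filters. Without each array in turn the counts were 97 to 118 and 34 to 56. Of the 101 higher genes 89 to 99 were shared, and of the 39 lower genes 29 to 38.

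The ID1 difference of 0.47 became 0.29 as the mean over both probes, since the dimmer probe differed by only 0.12, and 0.51, past the limit of 0.5, without the array labelled cyclin D1 siRNA 3. For YAP1 the range over all settings was -1.37 to -1.27, for SNAI2 -0.22 to -0.12, for TWIST1 0.019 to 0.10 and for CDH11 -0.092 to 0.018. CDH11 thus has no stable direction. None of the 27 named genes that were counted changed sign, and 18 of the 43 that were not counted did. No paired analysis was possible because no test was made and the sets share no replicate number, the intermediate arrays being all numbered 3 and the lowest 1, 2 and 2. The signals of TWIST1, SNAI1, KLF17 and CDH1 were near background, so differences in these genes could hardly be resolved. What the cells of each set received was not tested and cannot be told from the labels.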
